A study of Mus musculus with 12 samples.

Results

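The comparison described here is that of testosterone with vehicle in the female mouse liver at the end of treatment. Its members were chosen by sample title, as the 3 arrays of testosterone-treated livers and the 3 arrays of vehicle-treated livers whose titles name no withdrawal, 6 of the 12 arrays of the series. All mice were females of the inbred strain C57BL/6, and each array carried liver RNA of 1 mouse. The vehicle group had received 100 µl of sesame oil under the skin for 3 weeks, 2 injections per week, and the testosterone group 0.9 mg of testosterone on the same schedule. The remaining 6 mice were treated alike but killed after withdrawal, for which the labels give 12 weeks and the series' design text 3 weeks. They enter below through the shared estimate of the spread, the signal floor, the filter on dim signals, the choice of each gene's probe set, and where they are named. The age of the mice, the time between the last injection and the removal of the liver, and the phase of the estrous cycle are not stated in the sources used here. Per the labels, the study concerns short and long term effects of testosterone on the mRNA of the female liver.

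Livers of male and female mice differ in many mRNAs, above all in enzymes that modify steroids, drugs and fatty acids. The difference is set largely by the pituitary: growth hormone reaches the male liver in pulses and the female liver almost without pause, and the transcription factor STAT5B carries that pattern into the hepatocyte. Androgens act on this system through the hypothalamus and pituitary, and also through their own receptor, a transcription factor present in hepatocytes. Cytochromes P450 and sulfotransferases are the best known sex-biased families of mouse liver, and the account below is mainly about the other genes.

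Signals are array intensities on a linear scale, given by mouse in the order of the replicate numbers of the labels, which name mice and pair none. Log2 changes are testosterone minus vehicle with the standard error of the limma fit, adjusted p-values are those of limma after Benjamini-Hochberg adjustment over all genes tested, called genes are those with an adjusted p under 0.05, and n = 3 mice per group throughout. A fold is the ratio of geometric means, and "at least" stands before it where any mouse of the lower group did not exceed a signal floor of 4.842. In whole liver, fewer cells of a type and less RNA per cell cannot be told apart. Median signals of the 6 arrays were 20.14 to 22.08. Arrays of one treatment correlated at r = 0.985 to 0.988 across probe sets and arrays of different treatments at r = 0.973 to 0.979.

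The array carries control probe sets near the 3' end and the 5' end of a few transcripts, and the ratio of the signals rises when RNA is shortened or incompletely copied from its 3' end. For beta-actin, the cytoskeletal protein, the ratio was 1.44, 1.64 and 1.48 in vehicle mice and 2.03, 2.11 and 2.19 in testosterone mice. For the glycolytic enzyme Gapdh it was 0.798, 0.735 and 0.757 in vehicle mice and 0.923, 0.958 and 0.908 in testosterone mice. For the mitochondrial enzyme pyruvate carboxylase, a longer transcript, it was 4.57, 7.2 and 6.4 in vehicle mice and 21.9, 17.4 and 17.3 in testosterone mice. Every testosterone mouse lay above every vehicle mouse in all 3 ratios. Two-sided exact permutation tests gave p = 0.1 for each, the smallest value that 3 mice against 3 can give. The signals of the 5' probe sets carried the difference. The 5' signal of pyruvate carboxylase was 73.5, 46.4 and 55.5 in vehicle mice and 17.1, 21.8 and 17.1 in testosterone mice, whereas its 3' signal was 336, 334 and 355 and 374, 379 and 295, with groups that overlapped. Beta-actin behaved likewise, with 5' signals of 1996, 1651 and 2080 against 1477, 1422 and 1246 and overlapping 3' signals, and the 5' signal of Gapdh was 2953, 3135 and 3021 against 2494, 2339 and 2586.

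After withdrawal the treatments overlapped in these ratios, and in withdrawn vehicle mice the pyruvate carboxylase ratio was above that of every vehicle mouse at the end. The actin ratio was 1.6, 1.83 and 1.89 in withdrawn vehicle mice and 1.82, 1.57 and 1.47 in withdrawn testosterone mice, and the pyruvate carboxylase ratio 9.03, 16.3 and 17 and 15.3, 9.86 and 9.33. Exact permutation tests there gave p = 0.2 for actin, 0.3 for Gapdh and 0.4 for pyruvate carboxylase. The arrays also read 4 bacterial transcripts that are supplied as labelled hybridisation controls, and at the end of treatment none of their ratios separated the groups (exact permutation p = 0.3 for bioB, 1 for bioC, 0.2 for bioD and 0.4 for cre). Of the 4 bacterial poly-A controls, which pass through labelling where they are added to the RNA, thr separated the groups, at 1.12, 1.67 and 1.6 in vehicle mice and 2.15, 2.54 and 2 in testosterone mice (exact permutation p = 0.1). The ratios of dap, lys and phe overlapped, with means of 1.82 against 1.75, 1.04 against 0.812 and 2.11 against 1.88 in testosterone and vehicle mice. In signal, bioB, bioD and cre were higher in every testosterone mouse than in every vehicle mouse, by the 3' and the 5' probe set, and bioC overlapped. The 3' signal of bioD was 983, 1153 and 1083 in vehicle mice and 1309, 1301 and 1428 in testosterone mice. The 3' signals of all 4 poly-A controls were also higher in every testosterone mouse. The transferrin receptor control was too dim for a ratio, with 5' signals down to 0.268. The part of the control signals and of the 3' to 5' ratios in the gene results was not tested, and results are given below also with each ratio as a covariate of the fit.

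**Figure D1:**
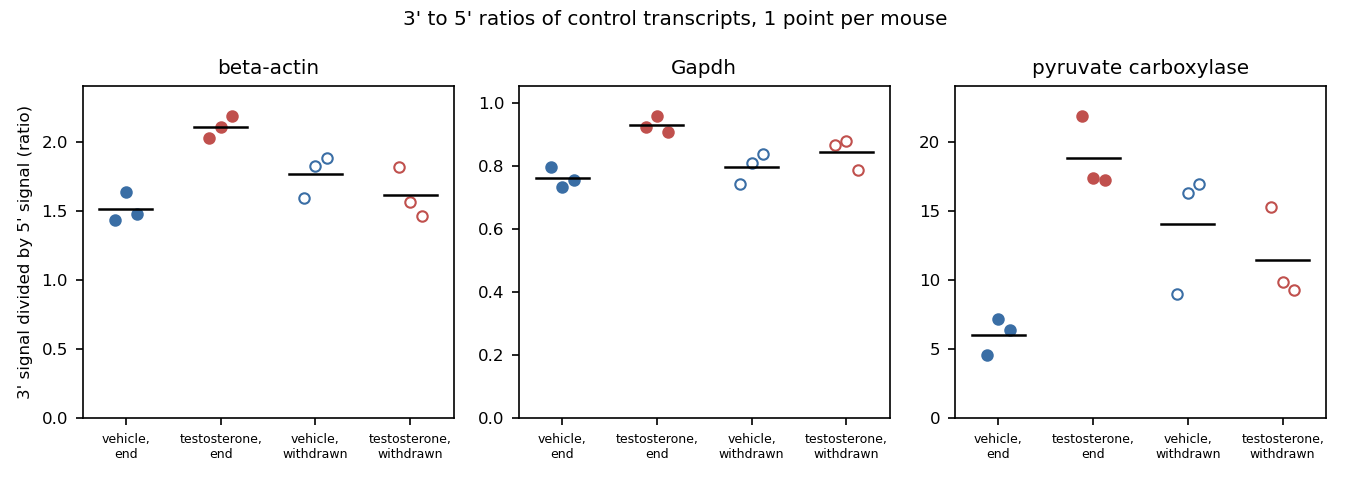
The ratio of 3' to 5' signal (vertical axes, linear, from 0) is plotted for 3 control transcripts, with 1 point per mouse, filled at the end of treatment and open after withdrawal, and a black line at each mean of 3 mice. At the end of treatment every testosterone mouse lies above every vehicle mouse in all 3 panels, with pyruvate carboxylase at 17.3 to 21.9 against 4.57 to 7.2, while the withdrawn groups overlap.

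The livers differed in many mRNAs, most of them by small amounts. Of 7217 genes tested, 1258 (17.4%) were called, of which 680 rose (9.42% of the genes tested) and 578 fell (8.01%). More than 1 in 2 of the called genes, 665 or 52.9%, changed by less than 1.5-fold, and 185 (2.56% of the genes tested) changed at least 2-fold, 75 upward (1.04%) and 110 downward (1.52%). At least 4-fold changes were found for 18 genes upward and 27 downward. Over all genes tested the median log2 change was 0.04, the middle 50% lay between -0.17 and 0.25 and the middle 90% between -0.63 and 0.59. The 53 P450 and sulfotransferase genes tested gave 12 of the increases and 21 of the decreases, so 1225 called genes belonged to neither family, among them 72 of the 75 genes that rose and 98 of the 110 that fell at least 2-fold. The mice of both treatments did not overlap in 35.7% of the genes tested, with all testosterone mice higher in 20.6% and all lower in 15.1%.

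**Figure D2:**
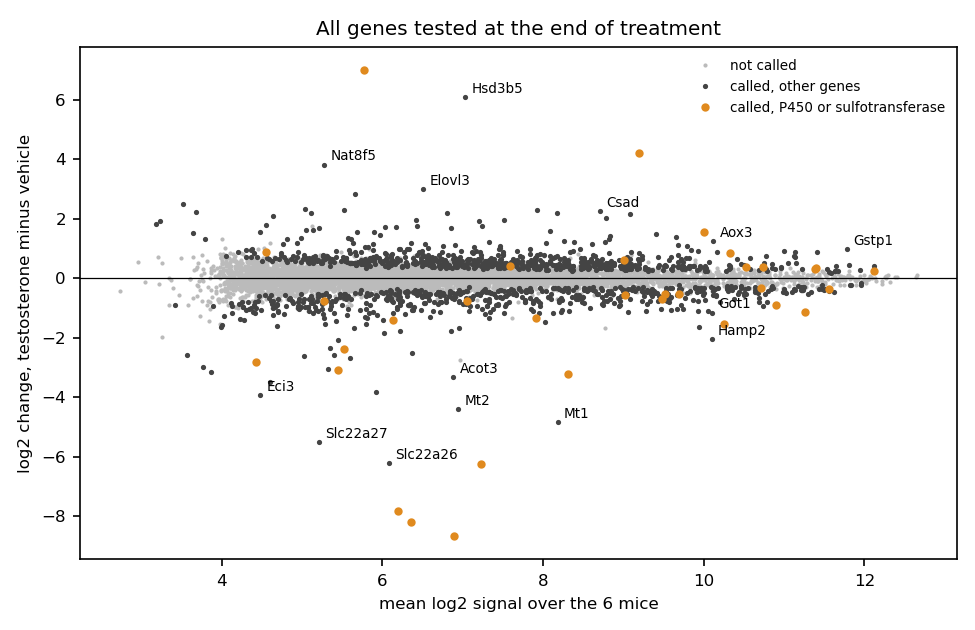
Each of the 7217 genes is placed by its mean log2 signal over the 6 mice (horizontal axis) and its log2 change, testosterone minus vehicle (vertical axis), grey where it was not called, black where it was called and orange where a called gene is a P450 or sulfotransferase. Most called genes lie within a log2 change of -1 to 1, and genes outside the orange families reach from -6.22 for Slc22a26 to 6.10 for Hsd3b5.

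With the control ratios in the fit far fewer genes were called. With the beta-actin ratio as a covariate 78 genes were called (1.08%), 33 higher (0.457%) and 45 lower (0.624%). With the Gapdh ratio the count was 86 (1.19%), 44 higher (0.61%) and 42 lower (0.582%), and with the pyruvate carboxylase ratio 55 (0.762%), 23 higher (0.319%) and 32 lower (0.443%). Since the ratios separated the treatment groups at this time, such a fit estimates the treatment effect less precisely. A call lost there can go with a log2 change that is kept, reduced or reversed. The hormone effect and that of the ratio cannot be told apart by it. The genes that kept their call and direction under every one of the 20 alternative fits in which they were measured, the 3 ratios and the removal of each mouse included, numbered 38, of which 17 rose and 21 fell. They were singled out after their values were seen. Their treatment groups did not overlap in any of the 38, the smallest change among them was 1.85-fold, and 9 are P450s or sulfotransferases (Cyp2d9 and Cyp4a12a upward, Cyp17a1, Cyp2b13, Cyp2c68, Cyp3a44, Sult1a1, Sult2a2 and Sult3a1 downward). The other 29, 15 higher and 14 lower, are described next.

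Among the increases that held under every fit, Nat8f5 of the N-acetyltransferase 8 family read 6.97, 20.9 and 7.55 in vehicle mice and 175, 152 and 116 in testosterone mice, a rise of 14.1-fold (3.82 ± 0.40, adjusted p = 1.81e-05). The signal of Elovl3, which lengthens very long chain fatty acids, was 42.3, 27.1 and 28.9 in vehicle mice and 176, 290 and 335 in testosterone mice (rise of 8.02-fold, adjusted p = 2.19e-06). C6, a part of the complement pore that lyses membranes, read 152, 176 and 93.3 in vehicle mice and 676, 556 and 619 in testosterone mice, 4.53-fold higher (2.18 ± 0.29). In all 3 genes the lowest testosterone mouse lay well above the highest vehicle mouse. Gstp1, a glutathione transferase, read 2465, 2441 and 2628 in vehicle mice and 4772, 5130 and 4861 in testosterone mice (0.97 ± 0.07, adjusted p = 2.73e-07). Aox3, an aldehyde oxidase that acts on drugs and on vitamin A aldehyde, read 757, 721 and 683 in vehicle mice and 1677, 1784 and 1709 in testosterone mice (1.26 ± 0.11), and Nudt7, a peroxisomal enzyme that breaks down coenzyme A, 1735, 2324 and 2005 in vehicle mice and 3485, 3700 and 4002 in testosterone mice (0.89 ± 0.15). The spread within these groups was small beside the gap between them. Keg1, a relative of glycine N-acyltransferase, rose 2.18-fold, from 560 ± 96.4 to 1208 ± 83.6, and Ttc39c, a protein with tetratricopeptide repeats, rose 2.82-fold, from 403 ± 22.4 to 1143 ± 134. Carmil1, which regulates the capping of actin filaments, rose 4.59-fold from 16.4 ± 3.33, Etfbkmt, a methyltransferase of the mitochondrial electron transfer flavoprotein, 3.03-fold from 157 ± 14.1, and Mcm10, a factor of DNA replication, 2.41-fold from 198 ± 11.4. Alas2, the enzyme of the first step of heme synthesis best known from red cell precursors, read 89, 60.9 and 105 in vehicle mice and 257, 257 and 327 in testosterone mice (3.36-fold higher, adjusted p = 0.000202). Phlda1, Foxq1 and Gadd45g, the remaining increases, belong with the signalling genes below.

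The decreases that held under every fit were led by the organic anion transporters Slc22a26 and Slc22a27, whose mRNA was near the floor in testosterone mice. Slc22a26 read 530, 747 and 506 in vehicle mice and 1.74, 11.9 and 8.36 in testosterone mice, a fall of at least 74.7-fold, and Slc22a27 283, 219 and 248 in vehicle mice and 4.36, 6.78 and 5.18 in testosterone mice, a fall of at least 44.9-fold (adjusted p = 9.64e-11). Slc22a27 and, below, Mt1 were read by probe sets shared with similar sequences. The fit without shared probe sets did not measure them. Enzymes that handle fatty acids fell as well. Eci3, which shifts double bonds of fatty acids, read 84.3, 106 and 74.4 in vehicle mice and 3.55, 5.08 and 7.63 in testosterone mice (fall of at least 15.3-fold). Abcd2, which carries very long chain fatty acids into the peroxisome, read 111, 96 and 103 in vehicle mice and 12.6, 20.1 and 20.4 in testosterone mice (5.97-fold lower), and the acyl-CoA thioesterase Acot4 106, 120 and 143 in vehicle mice and 36.2, 32.5 and 35 in testosterone mice (3.53-fold lower). In each of these genes all testosterone mice lay well below the lowest vehicle mouse. Bche, the butyrylcholinesterase that the liver secretes into plasma, read 89, 92.1 and 88.5 in vehicle mice and 19.6, 19.7 and 25.2 in testosterone mice (-2.07 ± 0.16, adjusted p = 1.02e-06), and the flavin monooxygenase Fmo2 128, 129 and 114 in vehicle mice and 18.2, 20.8 and 18.6 in testosterone mice (-2.69 ± 0.15, adjusted p = 2.56e-08). Mt1, a metallothionein that binds zinc and copper, fell 28.4-fold, but its vehicle mice were wide apart, at 1537, 3114 and 778, against 75.6, 39.5 and 54.6 in testosterone mice. The acute phase protein Orm3 fell at least 11.2-fold, from 84.8 ± 31.3 to 6.95 ± 5.71. The smaller decreases were Mmd2, a membrane protein of the adiponectin receptor family (3.41-fold, from 138 ± 9.46), Trim24, a cofactor of nuclear receptors (3.39-fold, from 215 ± 43), Echdc3, a relative of enoyl-CoA hydratase (2.21-fold), the ribonuclease angiogenin, Ang (2.05-fold), and Slc16a7, a carrier of lactate and pyruvate (1.9-fold, from 346 ± 24.1 to 181 ± 3.4).

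**Figure D3:**
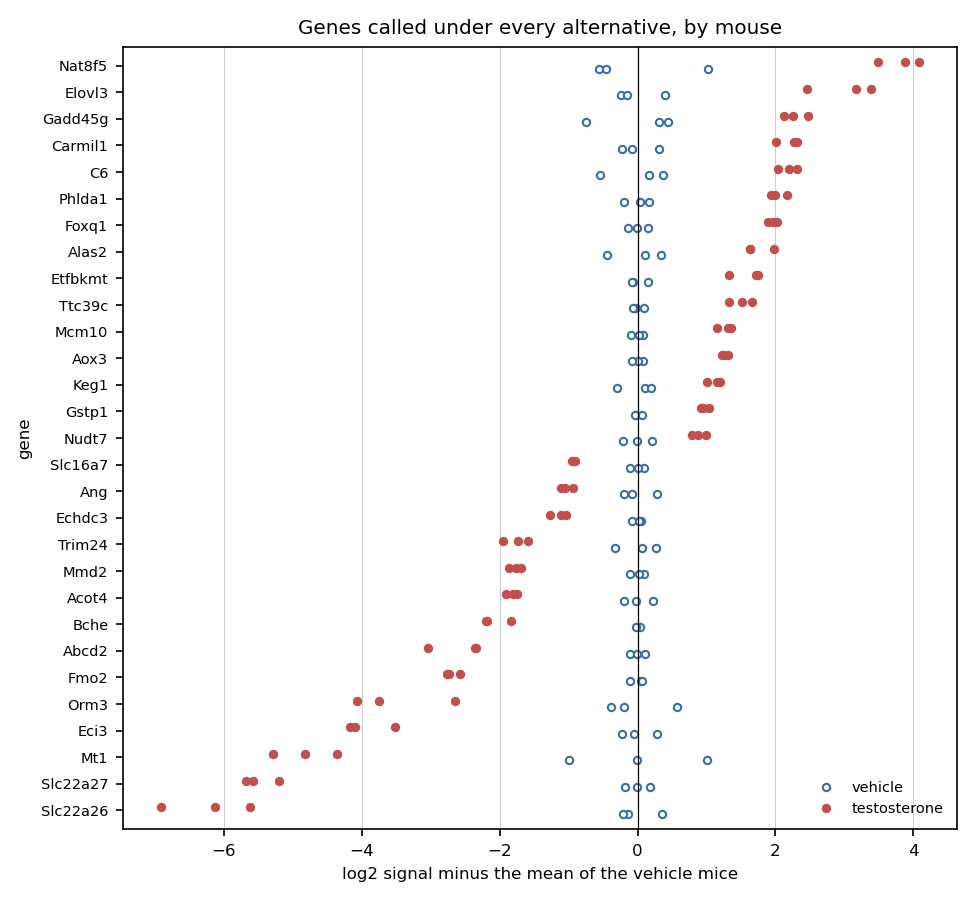
For the 29 genes outside the P450 and sulfotransferase families that were called the same way under every fit, the horizontal axis gives the log2 signal of each mouse minus the mean of the vehicle mice of that gene, with open points for vehicle and filled points for testosterone mice, and signals under the floor set to it. The groups are apart in all 29 genes, which the selection favours, from Nat8f5 at 3.82 to Slc22a26 at -6.22. The vehicle mice of Mt1 spread over about 2 units.

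Other large increases held in the main comparison and lost their call with at least 1 of the 3 ratios in the fit. Hsd3b5, a steroid dehydrogenase of male mouse liver, read 2.52, 43.3 and 18.9 in vehicle mice and 1033, 985 and 1266 in testosterone mice and lost its call only with the pyruvate carboxylase ratio. Csad, which makes the taurine precursor hypotaurine, read 182, 147 and 265 in vehicle mice and 834, 940 and 975 in testosterone mice, 4.76-fold higher (2.25 ± 0.21, adjusted p = 5.79e-06). Dnase2a, the lysosomal nuclease, read 81.2, 109 and 145 in vehicle mice and 478, 523 and 630 in testosterone mice (4.97-fold higher). All testosterone mice were above all vehicle mice in these genes. Ampd2, which deaminates AMP, rose 4.62-fold from 40.4, 33.2 and 105 to 226, 331 and 186, and the mitochondrial carrier Slc25a30 rose 3.81-fold, from 76 ± 11.9 to 289 ± 38.3. The call of Ampd2 was also lost without shared probe sets. Dnase2a was read by such a probe set, and that fit did not measure it. Slco1a1, an organic anion carrier of male-biased liver, read 194, 319 and 271 in vehicle mice and 1155, 1005 and 1277 in testosterone mice (2.15 ± 0.69, adjusted p = 0.0435). Its groups were far apart at this time, the spread of the fit also takes in the withdrawn mice (106, 1.92 and 17.5 and 917, 1281 and 1052 for vehicle and testosterone), and the call was lost when any 1 of the 6 mice was left out. Genes that were at or near the floor in vehicle mice and rose were the trefoil peptide Tff3 (at least 5.63-fold), Lce1i, a protein of the cornified envelope of skin (at least 4.68-fold), the laminin chain Lama3 (at least 3.77-fold) and the matrix protein osteomodulin, Omd (at least 3.56-fold). Their signals in testosterone mice were low too, at 28.3 ± 9.15, 33.9 ± 20.6, 18.7 ± 4.51 and 17.6 ± 4.32, and the calls of the last 3 were lost with a higher floor. Hsd3b2, another steroid dehydrogenase, rose 3.23-fold from 67.4 ± 23.5, Nat8 3.21-fold from 23.2 ± 13.8 (a call lost without vehicle mouse 1), and Spsb4, an adaptor of ubiquitin ligases, 4.22-fold from 13.8 ± 8.51.

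Transporters of organic ions and drugs were among the genes with large changes: of 25 tested members of that list 3 rose and 7 fell (28%, against 8.01% of all genes), with a median of -0.14. Without testosterone mouse 3 or vehicle mouse 1, 1 member rose. The exporter Abcg2, which carries drugs and urate, rose 2.29-fold (adjusted p = 4.47e-05) and the organic anion carrier Slco1a4 fell (-1.10 ± 0.16, adjusted p = 0.000401).

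Among the other large decreases, Mt2, the second metallothionein, read 631, 1452 and 197 in vehicle mice and 35.8, 26.4 and 20.4 in testosterone mice (21.1-fold lower). Vehicle mouse 2 had the highest signal of the group for Mt1, Mt2 and for 3 acute phase genes: Lcn2 read 102, 2008 and 56.4 in vehicle mice and 22.1, 20.7 and 9.25 in testosterone mice, Orm2 94.2, 1053 and 77.9 in vehicle mice and 24.2, 41.6 and 40.5 in testosterone mice and the serum amyloid P component Apcs 1605, 2611 and 1252 in vehicle mice and 554, 482 and 644 in testosterone mice. For Lcn2 and Orm2 that 1 mouse lay more than 10 times above the others of its group, and the other vehicle mice still lay above all testosterone mice; the call of Orm2 was lost without testosterone mouse 1. Slc22a29, a further organic anion carrier, read 102, 120 and 126 in vehicle mice and 11.6, 20 and 11.8 in testosterone mice (8.25-fold lower), and the thioesterase Acot3 292, 328 and 549 in vehicle mice and 69.2, 27.1 and 27.5 in testosterone mice (10.1-fold lower); both lost their call with the Gapdh ratio only. Slc22a29, Acot3 and, below, Hamp2 were read by shared probe sets, and the fit without these did not measure them. The peroxisomal hydroxyacid oxidase Hao2 fell at least 8.91-fold, from 45.8 ± 15.6 to 3.79 ± 1.35. Nt5e, the ectoenzyme CD73 that makes adenosine, read 36.5, 34.2 and 45.2 in vehicle mice and 1.21, 4.9 and 1.89 in testosterone mice (at least 7.88-fold lower), and the prostaglandin D synthase Ptgds 136, 77.3 and 73.3 in vehicle mice and 15.2, 32 and 12 in testosterone mice (5.09-fold lower). No testosterone mouse reached the vehicle range in these genes. Hamp2, a relative of the iron hormone hepcidin, read 1389, 2454 and 3188 in vehicle mice and 451, 636 and 561 in testosterone mice (4.07-fold lower, adjusted p = 5.19e-05), whereas Hamp, hepcidin itself, read 3523, 3981 and 4297 in vehicle mice and 3749, 3667 and 3716 in testosterone mice and was not called (-0.08 ± 0.07, adjusted p = 0.469). Smaller decreases were those of the drug exporter Abcb1a (2.9-fold), the calcineurin regulator Rcan2 (3.18-fold), the acyltransferase Acnat2 (3.17-fold), the interleukin 18 binding protein Il18bp (2.89-fold), the membrane trafficking protein Mia2 (3.13-fold), the centromere protein Cenpm (2.97-fold) and Dntt, the terminal transferase of lymphocyte precursors, whose probe set read 48, 49.3 and 38.3 in vehicle mice and 20.9, 15.4 and 10.2 in testosterone mice.

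Genes of growth factor and cytokine signalling changed in both directions. Myc, the growth regulator, read 13.6, 9.51 and 24.2 in vehicle mice and 93.1, 60.6 and 72.1 in testosterone mice (5.07-fold higher, adjusted p = 0.000133). Phlda1, an early response gene, read 243, 190 and 223 in vehicle mice and 977, 830 and 868 in testosterone mice (2.03 ± 0.16, adjusted p = 1.14e-06), and Foxq1, a forkhead transcription factor, 43.1, 48.4 and 39.3 in vehicle mice and 177, 161 and 170 in testosterone mice (1.96 ± 0.15, adjusted p = 9.81e-07). Both had tight groups, and both kept their call in every fit. Gadd45g, a stress and growth arrest gene, read 28.4, 25.8 and 12.4 in vehicle mice and 100, 116 and 90.6 in testosterone mice (4.87-fold higher), and Plk3, a stress kinase, 29.6, 40.9 and 38.9 in vehicle mice and 101, 130 and 129 in testosterone mice (3.3-fold higher). Cish, which STAT5 induces and which in turn dampens growth hormone signalling, read 44.5, 46.9 and 29.6 in vehicle mice and 118, 128 and 150 in testosterone mice (3.33-fold higher, adjusted p = 8.12e-05). Moving the other way was Dusp6, a phosphatase that shuts off ERK, at 156, 136 and 175 in vehicle mice and 59.6, 94.5 and 64.1 in testosterone mice (2.18-fold lower). Errfi1, an inhibitor of the EGF receptor, rose 1.64-fold, a call lost without testosterone mouse 1, testosterone mouse 2 or vehicle mouse 1. Of 29 tested members of the list of STAT5 and STAT3 targets, 5 rose (17.2%, against 9.42% of all genes). These were Cish, Myc, Onecut1, the kinase Pim1 and the feedback inhibitor Socs3. In the same list 8 fell (27.6%, against 8.01% of all genes), Orm3, Cux2 and Orm2 among them, and its median log2 change was -0.15. Without testosterone mouse 3 or vehicle mouse 3, 3 of its members rose, Pim1 and Socs3 not among them, and Pim1 also lost its call without testosterone mouse 2 or vehicle mouse 2. The list of immediate early genes had 4 of 24 members higher (16.7%) and 1 lower (4.17%), against the same shares of all genes. Its median was -0.02, which is below the 0.04 of all genes. The growth hormone receptor Ghr read 2184, 2467 and 2644 in vehicle mice and 2920, 2712 and 3027 in testosterone mice, without overlap, and was not called (adjusted p = 0.0798), Igf1, the growth factor it induces, fell 1.39-fold (-0.47 ± 0.08), and its plasma partner Igfals fell 1.56-fold. Bcl6, a repressor of STAT5 targets, overlapped between the groups (-0.01 ± 0.25), while the female-biased repressor Cux2 read 35.7, 20.5 and 33.5 in vehicle mice and 0.721, 1.85 and 1.13 in testosterone mice (at least 6-fold lower).

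Receptors and steroid genes gave a mixed picture. The androgen receptor and the prolactin receptor were not analysed here. Esr1, the estrogen receptor, was under the signal filter and had no test, with signals of 13.5, 20.1 and 20.2 in vehicle mice and 3.59, 5.45 and 1.03 in testosterone mice, all below the lowest vehicle mouse. Met, the receptor of hepatocyte growth factor, read 111, 117 and 88 in vehicle mice and 55.3, 44.6 and 42.5 in testosterone mice (2.22-fold lower), and Hgf, its ligand, fell 1.9-fold, from 20.6 ± 3.34 to 10.8 ± 0.498, a call lost without vehicle mouse 3. The EGF receptor Egfr rose 1.67-fold by its brightest probe set, a call lost without vehicle mouse 3, and its probe sets disagreed, as described below. Among 29 receptors of growth factors, cytokines and hormones, 2 rose and 2 fell, a share below that of all genes. In the list of androgen and polyamine genes 4 of 19 members rose and 1 fell (median 0.09). Besides Hsd3b5 and Hsd3b2, Odc1, the first enzyme of polyamine synthesis and a classical androgen target in kidney, read 164, 197 and 241 in vehicle mice and 331, 347 and 338 in testosterone mice (1.71-fold higher, adjusted p = 0.012), and it was no longer called without vehicle mouse 1. Hsd17b11, a steroid and lipid droplet dehydrogenase, rose 1.36-fold with overlapping groups, and its call was lost without vehicle mouse 1 or 2 or testosterone mouse 1 or 2. Without vehicle mouse 1, 2 members of the androgen list rose. The glucocorticoid targets Fkbp5 and Tsc22d3 were not called (-0.14 ± 0.28 and -0.11 ± 0.18), and their groups overlapped. The glucocorticoid receptor Nr3c1 was not called either (-0.18 ± 0.10, adjusted p = 0.216).

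A number of hepatocyte transcription factors rose. Of 33 tested members 10 rose (30.3%, against 9.42% of all genes) and 1 fell, with a median log2 change of 0.25. Besides Foxq1, Onecut1, a factor of hepatocyte and bile duct development, read 47, 51.7 and 42.4 in vehicle mice and 127, 173 and 186 in testosterone mice (3.41-fold higher), the homeobox factor Hhex 245, 315 and 298 in vehicle mice and 709, 601 and 697 in testosterone mice (2.35-fold higher) and the pioneer factor Foxa1 72.7, 81.5 and 71 in vehicle mice and 152, 158 and 160 in testosterone mice (2.09-fold higher, adjusted p = 0.000208). The groups did not overlap in any of these. Foxa2 rose 1.5-fold (0.58 ± 0.13) and Cebpb, which drives acute phase and metabolic genes, 1.63-fold (0.71 ± 0.12). Hnf4a, the main regulator of hepatocyte identity, rose 1.24-fold (0.31 ± 0.09) by its brightest probe set. Another of its probe sets was called lower, from a mean of 98.7 to 40.5 (log2 -1.31 ± 0.21), and the mean of its probe sets gave -0.25. The rise of Hnf4a was no longer called when mouse 1 or mouse 2 of either group was left out. With the actin, Gapdh and pyruvate carboxylase ratios in the fit the median of the list was 0.24, 0.09 and 0.14, and 1 member was called in each fit. Of 25 nuclear receptors of metabolism 1 rose and 4 fell, with a median of 0.00. Nr1i3, the drug-sensing receptor CAR, read 396, 460 and 400 in vehicle mice and 235, 200 and 139 in testosterone mice (2.23-fold lower, adjusted p = 0.000401). The dioxin receptor Ahr fell 1.56-fold (-0.64 ± 0.13), the retinoic acid receptor Rarb 1.77-fold and the oxysterol receptor Nr1h3 1.3-fold, and without vehicle mouse 1 the count that fell was 2, with Rarb and Nr1h3 no longer called. Rarb also lost its call without testosterone mouse 2, and Nr1h3 without testosterone mouse 1 or 3 or vehicle mouse 3.

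Counted by pathway, among the lists with at least 15 tested members, the share of increases was highest in genes of the endoplasmic reticulum, and the share of decreases in macrophage markers and amino acid breakdown. The lists were drawn up with results of these data known, so their counts are descriptions to be set beside the shares of all genes, 9.42% higher and 8.01% lower. Lists whose share of called members stayed near or below these values in both directions were ribosomal proteins (3 of 41 higher, 0 lower), translation factors (3 of 34 higher, 0 lower), ribosome biogenesis (2 higher and 2 lower of 34), glycolysis (1 and 1 of 23), the citric acid cycle (2 and 0 of 24) and the cytoskeleton (3 and 4 of 38, with 1 or 2 lower without testosterone mouse 1 or 3 or vehicle mouse 1 or 2). The counts of increases fell to 1 for ribosomal proteins when any mouse other than vehicle mouse 2 was left out, to 0 for ribosome biogenesis likewise, to 1 for translation factors without vehicle mouse 1 and to 1 for the cytoskeleton without testosterone mouse 2. Over all lists, those here and below, counts of 3 or fewer called members lay between 0 and 5 when 1 mouse was left out. Pfkfb3, which sets the rate of glycolysis through fructose 2,6-bisphosphate, was the glycolytic gene that rose, at 22, 8.28 and 10.8 in vehicle mice and 38.7, 49.9 and 43 in testosterone mice (3.48-fold higher), and Gckr, the inhibitor of glucokinase, the one that fell (1.33-fold). Sucla2 (1.34-fold) and Pdhb (1.33-fold), subunits of succinate CoA ligase and pyruvate dehydrogenase, rose in the citric acid cycle list.

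**Figure D4:**
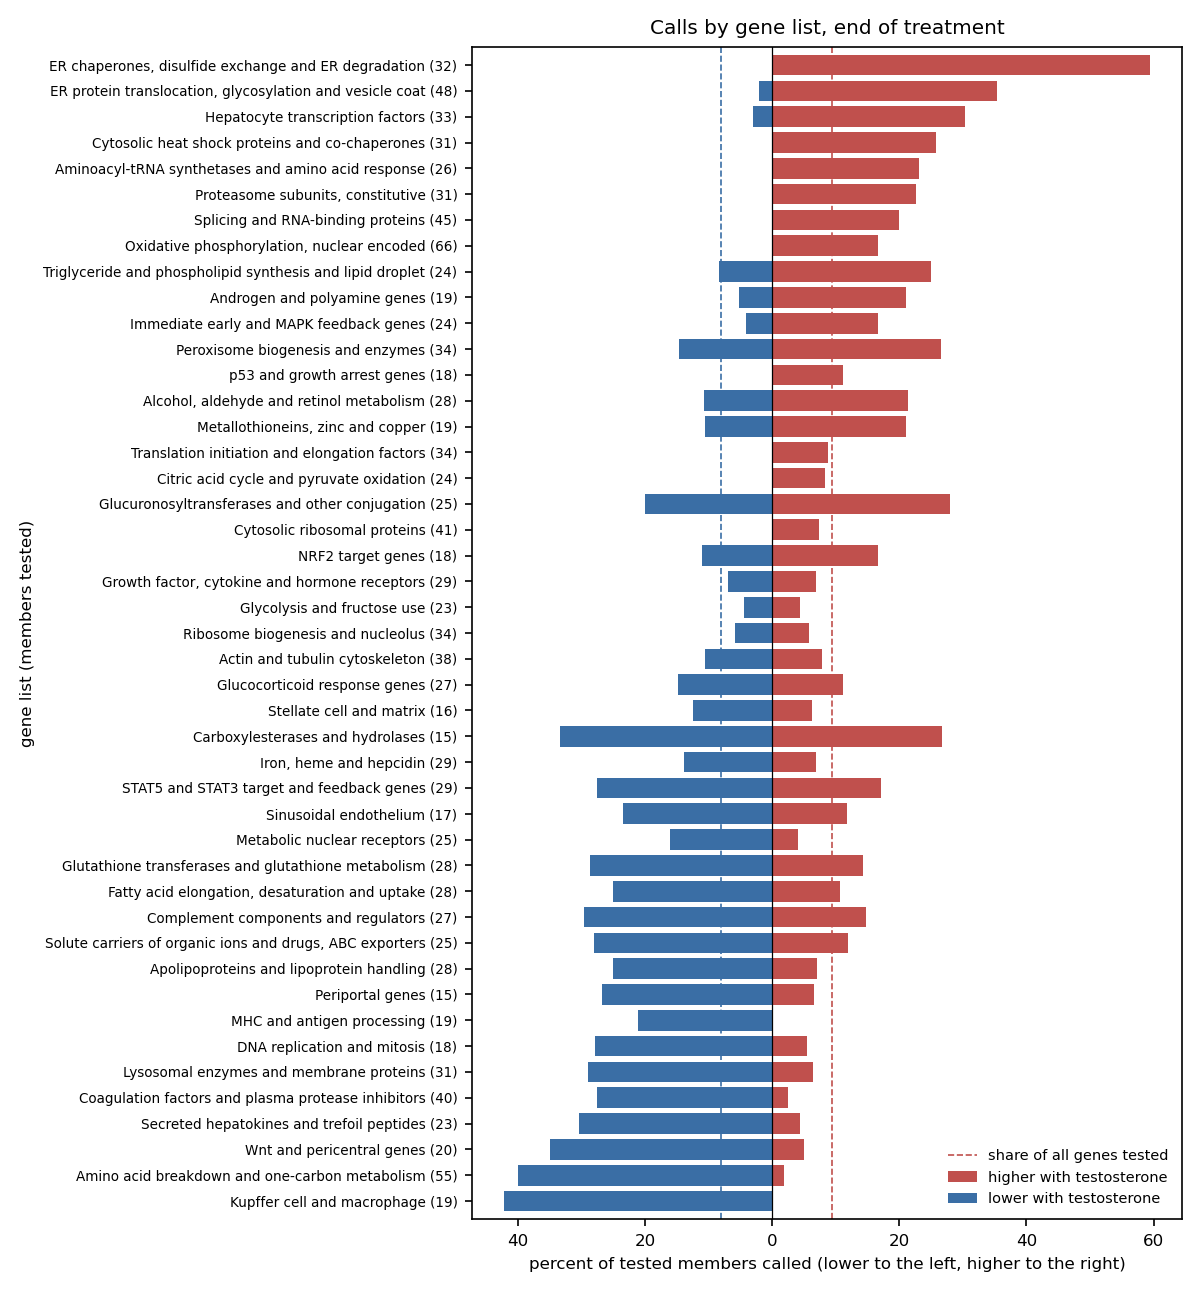
For each list with at least 15 tested members (number in parentheses), the bar to the right gives the percent of members called higher and the bar to the left the percent called lower, and dashed lines mark 9.42% and 8.01%, the shares of all genes tested. The chaperones of the endoplasmic reticulum reach 59.4% to the right, and amino acid breakdown 40% and macrophage markers 42.1% to the left.

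Genes that fold and check proteins inside the endoplasmic reticulum rose in testosterone mice. Of 32 tested chaperones, disulfide exchange enzymes and degradation factors 19 rose (59.4%), 0 fell, and the median log2 change was 0.44. Creld2, a chaperone-like stress protein, read 94.6, 87.1 and 96.6 in vehicle mice and 389, 528 and 227 in testosterone mice (3.88-fold higher, adjusted p = 0.000121). Sdf2l1, a cofactor of the chaperone BiP, read 39.1, 45.8 and 30.1 in vehicle mice and 101, 152 and 73.7 in testosterone mice (2.76-fold higher), and Manf, a secreted stress protein, 675, 721 and 588 in vehicle mice and 1116, 1529 and 1215 in testosterone mice (1.93-fold higher). Derl3, a factor of retrotranslocation, read 18.9, 23.3 and 19.2 in vehicle mice and 56.3, 68.9 and 26 in testosterone mice (2.28-fold higher, adjusted p = 0.0311). Testosterone mouse 3 had the lowest signal of its group in Creld2, Sdf2l1 and Derl3, and mouse 2 the highest in all 4 genes, and without testosterone mouse 2 the count of members that rose was 12. The call of Derl3 was lost without testosterone mouse 1 or 2 or vehicle mouse 1 or 3. With the actin, Gapdh and pyruvate carboxylase ratios in the fit the median was 0.32, 0.22 and 0.36, and 1, 0 and 1 members were called. Xbp1, the transcription factor of this response, was not called (0.27 ± 0.09, adjusted p = 0.0564).

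Promoters of such genes are known to carry the endoplasmic reticulum stress response element, to which ATF6 and XBP1 bind together with NF-Y. Its letters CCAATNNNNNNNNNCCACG were searched on both strands in the RefSeq promoter windows of GRCm38.p6, 250 bases before to 50 after each start. The windows searched left out a chromosome, whose genes count here as having no window. The motif stood in 10 of the 28 list members with a window, and all 10 were among the 17 called members with a window. Over all genes tested with a window it stood in 14 of 5951 (0.235%), and over all windows in 39 of 32851 (0.119%). The stretches of 4 genes of the list are printed to show the element, with Hspa5 as its best known carrier, beside that of Acnat2, which holds the same letters and fell. Capitals mark the CCAAT and CCACG ends of the motif, or their complements ATTGG and CGTGG where it lies on the other strand.
Hspa5, chr2:34772013-34772055, plus strand: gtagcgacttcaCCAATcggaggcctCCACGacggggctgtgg
Creld2, chr15:88819508-88819550, plus strand: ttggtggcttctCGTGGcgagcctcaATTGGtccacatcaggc
Derl3, chr10:75893230-75893272, plus strand: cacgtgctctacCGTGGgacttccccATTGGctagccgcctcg
Pdia6, chr12:17266479-17266521, plus strand: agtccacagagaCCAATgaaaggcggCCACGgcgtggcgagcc
Acnat2, chr4:49408205-49408247, minus strand: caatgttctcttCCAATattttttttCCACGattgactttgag
The stretch of Creld2 is also the promoter of its neighbour Alg12, a mannosyltransferase that starts on the opposite strand. A match is a description of letters, not a site or a cause.

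The 14 tested genes with the motif were chosen by the search, after values were seen. Over all 5951 genes tested with a window, 567 were called higher. The 10 motif genes that rose all belong to the list, which was drawn up with results of these data known. The 10 that rose, with log2 changes from 0.40 to 1.96, were the chaperones Hspa5 (BiP), Hsp90b1 (GRP94), Calr and Canx, the BiP cofactor Dnajc3, the disulfide enzymes Pdia6 and Ero1b, the ubiquitin ligase Syvn1, and Derl3 and Creld2. Hspa5 read 1789, 1606 and 1768 in vehicle mice and 2722, 3215 and 2769 in testosterone mice (0.75 ± 0.08, adjusted p = 2.46e-05), Pdia6 500, 470 and 474 in vehicle mice and 749, 804 and 696 in testosterone mice (0.64 ± 0.12) and Syvn1 76.4, 62.5 and 57.9 in vehicle mice and 100, 148 and 112 in testosterone mice (0.86 ± 0.18). All testosterone mice were above all vehicle mice in these 3, and in each of the 10, as in 20.6% of all genes tested. The calls of Canx, Dnajc3 and Hsp90b1 were each lost when 1 of 4 mice was left out, testosterone mouse 1 and vehicle mouse 1 in all 3 genes, and a second probe set of Hsp90b1 fell (log2 -0.50 ± 0.12). Of the 4 genes with the motif outside the list, 0 rose. Alg12, which shares the stretch with Creld2, read 29.5, 21 and 21.6 in vehicle mice and 29.4, 41.4 and 33 in testosterone mice (0.53 ± 0.21, adjusted p = 0.0903), Acacb, an acetyl-CoA carboxylase, -0.48 ± 0.28 on the log2 scale, and Pan2, a deadenylase, -0.28 ± 0.19, none of them called. Acnat2 fell, from 223, 251 and 193 to 75.3, 61.9 and 72.4.

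**Figure D5:**
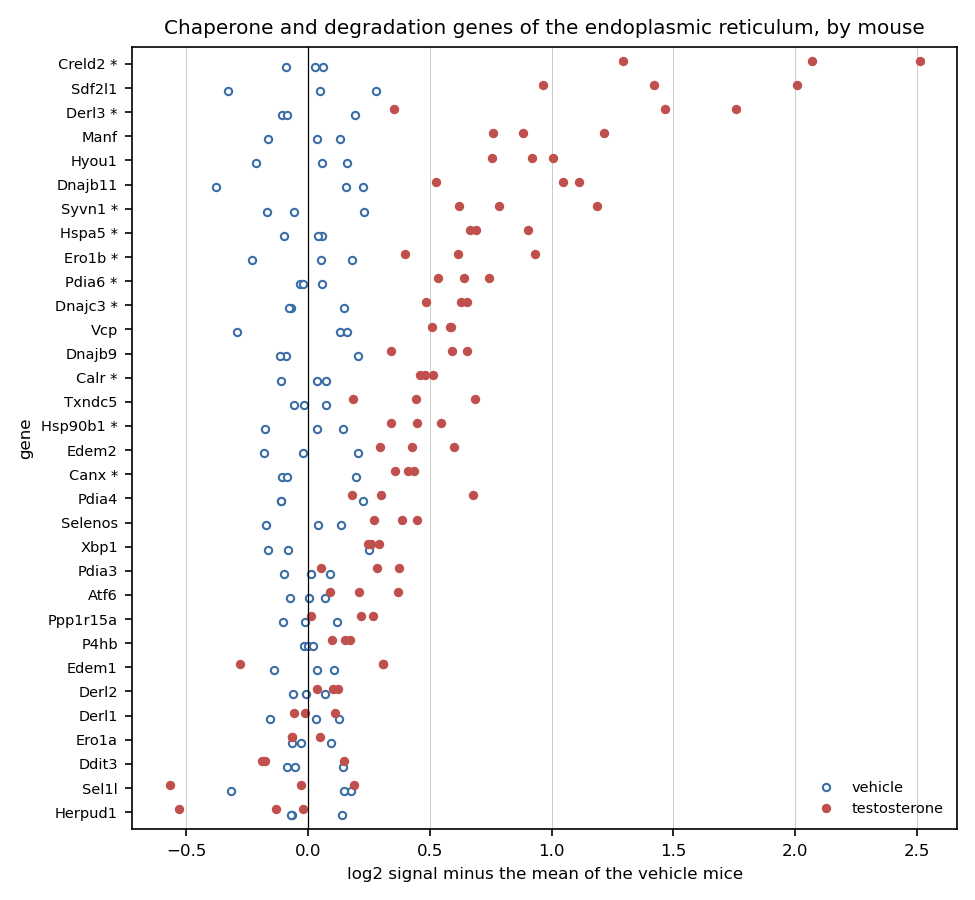
For the 32 tested genes of folding and degradation in the endoplasmic reticulum, the horizontal axis gives each mouse's log2 signal minus the mean of the vehicle mice, open for vehicle and filled for testosterone, and an asterisk marks genes whose promoter window holds the stress element. All 10 marked genes are among the 18 with the highest log2 changes, from 0.40 for Canx to 1.96 for Creld2.

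The path of secreted proteins into and out of the endoplasmic reticulum showed smaller increases. Of 48 tested genes of translocation, glycosylation and vesicle coats 17 rose (35.4%) and 1 fell, with a median of 0.22. Stt3a, the catalytic subunit that attaches sugars to entering proteins, read 217, 253 and 279 in vehicle mice and 572, 447 and 478 in testosterone mice (2-fold higher), and Ssr1, a subunit of the translocon-associated complex, 322, 282 and 303 in vehicle mice and 513, 515 and 529 in testosterone mice (1.72-fold higher, adjusted p = 7.6e-05). Sec23b of the export coat rose 1.58-fold and Srp68 of the signal recognition particle 1.55-fold. The stress element stood in the window of 0 of the 38 members of this list with one. Of its channel, Sec61a1 rose by its brightest probe set (0.40 ± 0.12) and fell by another (-0.68 ± 0.17), and the first call was lost without testosterone mouse 1 or 2 or vehicle mouse 2 or 3. The count of members that rose was 11 without testosterone mouse 1 and 9 without testosterone mouse 2, and with the 3 ratios in the fit the medians were 0.23, 0.14 and 0.30, with 0 members called in each.

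Several other lists of protein and RNA handling had increases, 0 decreases and small sizes. Among cytosolic heat shock proteins 8 of 31 rose (25.8%, median 0.17), with Hsph1 at 153, 156 and 192 in vehicle mice and 325, 274 and 229 in testosterone mice (1.65-fold), and Hsp90aa1 at 578, 749 and 713 in vehicle mice and 1296, 957 and 933 in testosterone mice (1.55-fold). Testosterone mouse 1 was the highest in both, and without it 2 members were called, Hsph1 not among them. Without vehicle mouse 1, 4 were called, again without Hsph1. Hsp90aa1 lost its call with the mean of its probe sets. Of the proteasome subunits 7 of 31 rose (median 0.15), led by Psmc5 (1.5-fold, adjusted p = 0.00791), and 3 did so without testosterone mouse 1 or without mouse 3. Of the splicing factors and RNA-binding proteins 9 of 45 rose (20%, median 0.26), with U2af1, which reads the 3' splice site, at 227, 218 and 223 in vehicle mice and 282, 315 and 332 in testosterone mice (0.47 ± 0.09, adjusted p = 0.00256). Hnrnpa2b1, an RNA-binding protein that guides splicing, rose 1.52-fold, a call lost without testosterone mouse 1 or 3 or vehicle mouse 1 or 2. When any single mouse other than vehicle mouse 3 was left out, that count was 3 to 5. Subunits of oxidative phosphorylation gave 11 of 66 higher (16.7%), with a median of 0.07, close to that of all genes, and a count of 3 without vehicle mouse 1 and 4 to 6 without testosterone mouse 1, 2 or 3. In the list of tRNA synthetases and the amino acid response 6 of 26 rose (median 0.20), among them Chac1, which degrades glutathione, at 22.6, 14.6 and 17.2 in vehicle mice and 41.1, 44.4 and 48.2 in testosterone mice (2.49-fold), and the asparagine and serine tRNA synthetases Nars (1.4-fold) and Sars (1.38-fold). That count was 3 without testosterone mouse 3, and Sars also lost its call without testosterone mouse 2 or vehicle mouse 2. The letters TGATGNAA of the amino acid response element were searched in the same promoter windows. They stood in 6 of the 19 members with a window, and in 2 of the 4 called members with a window. Over all genes tested with a window they stood in 154 of 5951 (2.59%). With the 3 ratios in the fit 0 members of these 5 lists were called, and the median of the heat shock list was 0.00, 0.06 and -0.11.

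Many enzymes of amino acid breakdown fell. Of 55 tested members 22 fell (40%, against 8.01% of all genes) and 1 rose, with a median log2 change of -0.23. Got1, the cytosolic aspartate aminotransferase, read 1732, 1526 and 1667 in vehicle mice and 701, 599 and 970 in testosterone mice (2.21-fold lower, adjusted p = 0.000345), and Gpt, the alanine aminotransferase, 1380, 1169 and 1465 in vehicle mice and 856, 723 and 857 in testosterone mice (1.65-fold lower, adjusted p = 0.000556). Mccc2, a subunit of the carboxylase in leucine breakdown, read 95.6, 84.2 and 80.3 in vehicle mice and 38, 26.8 and 42.8 in testosterone mice (2.46-fold lower). Vehicle and testosterone mice did not overlap in these 3 enzymes. Gpt was read by a shared probe set, and the fit without these did not measure it. The gene that rose was Csad, of the path from cysteine to taurine. Hal, which starts histidine breakdown, fell 1.58-fold (-0.66 ± 0.14). Of the 7 urea cycle genes 1 fell, Asl, which splits argininosuccinate, at 1918, 1995 and 1947 in vehicle mice and 1466, 1207 and 1489 in testosterone mice (1.41-fold lower). The number of breakdown genes that fell was 14 without testosterone mouse 2 and 13 with each array centred on its median. With the actin, Gapdh and pyruvate carboxylase ratios in the fit, the median was -0.13, -0.13 and -0.17, and 0, 1 and 0 members were lower.

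Genes of lipid metabolism changed in both directions. In the list of fatty acid elongation, desaturation and uptake 3 of 28 rose and 7 fell (median -0.08). Within the Acot family of thioesterases, which release free fatty acids from coenzyme A, Acot1, the cytosolic member, read 27.8, 31.3 and 47.7 in vehicle mice and 143, 103 and 71.9 in testosterone mice (2.94-fold higher, adjusted p = 0.00151), opposite to Acot3 and Acot4. In the peroxisome list 9 of 34 rose (26.5%) and 5 fell, with a median of 0.16. The largest changes in it were the decreases of Eci3, Hao2, Abcd2 and of Decr2, which reduces double bonds, at 451, 478 and 233 in vehicle mice and 167, 149 and 183 in testosterone mice (2.23-fold lower). The increases were smaller, and their count was 4 without testosterone mouse 1 and 5 without vehicle mouse 1 or mouse 2. Of 24 genes of triglyceride and phospholipid synthesis 6 rose and 2 fell (median 0.07). Lpin1 and Lpin2, phosphatases that make diacylglycerol, read 350, 193 and 271 in vehicle mice and 932, 394 and 542 in testosterone mice (2.21-fold higher) and 573, 271 and 539 in vehicle mice and 756, 748 and 862 in testosterone mice (1.8-fold higher). Testosterone mouse 1 had the highest Lpin1 signal, more than 1.5 times that of the other mice of its group. Lpin2 lost its call with the mean of its probe sets. Chpt1, which finishes phosphatidylcholine synthesis, read 350, 473 and 391 in vehicle mice and 765, 714 and 750 in testosterone mice (0.89 ± 0.15, adjusted p = 0.000931), a call lost with the pyruvate carboxylase ratio only. Tm6sf2, which helps load lipid onto secreted lipoproteins, read 254, 172 and 231 in vehicle mice and 105, 111 and 102 in testosterone mice (2.04-fold lower, adjusted p = 9.14e-05). Among 28 genes of lipoprotein handling 2 rose and 7 fell (median -0.10), including the receptor Vldlr (2.28-fold lower), the transfer protein Pltp (1.59-fold lower) and the paraoxonase Pon3 (1.43-fold lower). Between 1 and 4 members of that list fell when any 1 mouse was left out. Pltp lost its call when any 1 of the 6 mice was left out, Pon3 when any other than vehicle mouse 3 was, and Vldlr without testosterone mouse 1. Vldlr also lost its call with the mean of its probe sets and without shared probe sets. With the 3 ratios in the fit the medians of that list were 0.05, 0.04 and -0.02, and 0 members were lower.

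Detoxifying enzymes other than P450s changed in both directions within families. Of 14 flavin monooxygenases, aldehyde oxidases and related enzymes, 3 rose and 5 fell. Aox1, like Aox3, rose: it read 215, 221 and 224 in vehicle mice and 532, 479 and 516 in testosterone mice (1.21 ± 0.11, adjusted p = 6.16e-06). Fmo1, like Fmo2, fell, from 1053, 1180 and 1286 to 619, 497 and 599 (-1.04 ± 0.10, adjusted p = 7.56e-06). The groups were apart in both. Among 28 glutathione genes 4 rose and 8 fell (median -0.12). Against the rise of Gstp1, Mgst3 of the microsomal family read 246, 338 and 250 in vehicle mice and 104, 119 and 149 in testosterone mice (2.24-fold lower) and Gstt3 of the theta family 424, 453 and 435 in vehicle mice and 195, 170 and 273 in testosterone mice (2.1-fold lower). Gstm2 fell 1.81-fold with overlapping groups, a call lost without testosterone mouse 1 or 2 or vehicle mouse 1 or 2. Mgst3 lost its call with the mean of its probe sets. Gclc, which limits glutathione synthesis, rose 1.61-fold (0.69 ± 0.14) and Gsr, which regenerates glutathione, 1.71-fold (0.77 ± 0.12). The count of glutathione genes that fell was 5 without testosterone mouse 1 or 2. In the conjugation list 7 of 25 rose and 5 fell: within the Ugt2b family, whose members attach glucuronic acid to steroids, Ugt2b38 read 19.6, 21.8 and 15.8 in vehicle mice and 110, 162 and 136 in testosterone mice (7.14-fold higher) and Ugt2b37 113, 74.7 and 83.9 in vehicle mice and 41.5, 25.3 and 42.2 in testosterone mice (2.52-fold lower). Near-identical family members may share probes, so the split within Ugt2b, Gst and Ces1 genes is uncertain. The same holds for Slc22a27, Slc22a29, Mt1, Acot3 and Hamp2 beside their relatives. Of 15 carboxylesterases and hydrolases 4 rose and 5 fell, with Ces1e at 162, 202 and 200 in vehicle mice and 325, 313 and 361 in testosterone mice (1.78-fold higher) and Ces1g at 622, 661 and 605 in vehicle mice and 356, 304 and 412 in testosterone mice (1.77-fold lower). The count that fell was 2 or 3 when any 1 mouse was left out. The epoxide hydrolase Ephx2 rose 1.59-fold. Of 18 targets of NRF2, the factor of the oxidant response, 3 rose and 2 fell, which were Hmox1, heme oxygenase (2.25-fold lower), and the quinone reductase Nqo1 (1.69-fold lower). In the list of alcohol and retinol metabolism 6 of 28 rose and 3 fell, among them Adh4 (1.66-fold higher), Dhrs4 (1.63-fold higher), the mitochondrial aldehyde dehydrogenase Aldh1b1 at 261, 189 and 285 in vehicle mice and 111, 101 and 117 in testosterone mice (2.2-fold lower) and Rdh16 (1.71-fold lower). The count that rose there was 3 without testosterone mouse 1 or 3 or vehicle mouse 1.

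Several plasma proteins made by the hepatocyte fell. Of 40 coagulation factors and protease inhibitors 11 fell (27.5%) and 1 rose, with a median of -0.16, and in 21 of the 40 all testosterone mice were lower than all vehicle mice (52.5%, against 15.1% of all genes). F7, which starts clotting with tissue factor, read 609, 707 and 634 in vehicle mice and 393, 351 and 402 in testosterone mice (-0.77 ± 0.09, adjusted p = 9.08e-05). Serpinf2, the inhibitor of plasmin, read 2188, 2075 and 2009 in vehicle mice and 1444, 1444 and 1468 in testosterone mice (-0.53 ± 0.06, adjusted p = 7.36e-05), and Serpina6, which carries corticosterone in plasma, 2024, 2121 and 2391 in vehicle mice and 1244, 1151 and 1364 in testosterone mice (-0.80 ± 0.10). Each of these 3 had 3 closely spaced testosterone mice below the vehicle range. The inhibitor Serpina3n fell 1.71-fold, with vehicle mice at 801, 1246 and 601. Among 23 hepatokines and related secreted proteins 7 fell and 1 rose (median -0.24), and Lect2, a secreted chemotactic protein, read 1296, 1373 and 1160 in vehicle mice and 761, 697 and 791 in testosterone mice (-0.77 ± 0.08, adjusted p = 2.44e-05). With the 3 ratios in the fit the median of the coagulation list was -0.08, 0.01 and -0.07 and 0 members were lower.

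Of 27 complement genes 4 rose and 8 fell, with a median of -0.01. Besides C6, the regulator Susd4 rose 3.07-fold, from 22.9, 18.3 and 16.3 to 60.2, 46.4 and 70.8. Of the members that fell, C1qb, a recognition subunit made by macrophages, read 569, 523 and 350 in vehicle mice and 218, 231 and 206 in testosterone mice (2.16-fold lower) and Cfp, properdin, 315, 275 and 194 in vehicle mice and 123, 155 and 126 in testosterone mice (1.91-fold lower). Vehicle mouse 1 had the highest signal for both, and the count that fell was 4 without it or without testosterone mouse 1, with Cfp no longer called in either case. C1qb lost its call with the mean of its probe sets. Among iron and heme genes 2 of 29 rose and 4 fell. Id1, a target of the BMP signal that also drives hepcidin, read 70.3, 85.6 and 63.6 in vehicle mice and 28.3, 34.7 and 29.7 in testosterone mice (2.36-fold lower), while Hamp was not called. In the list of metallothioneins and metal handling 4 of 19 rose, among them Sod1, the copper and zinc superoxide dismutase, at 716, 593 and 846 in vehicle mice and 1334, 1332 and 1346 in testosterone mice (1.88-fold higher, adjusted p = 0.000356), and 2 fell, the metallothioneins. Without testosterone mouse 1 or vehicle mouse 1, 2 of its members rose. In the major urinary protein and lipocalin list Mup5 rose 1.42-fold (a call lost without testosterone mouse 3 or vehicle mouse 1) and Mup3 fell 1.36-fold. The call of Mup3 was lost when any mouse other than vehicle mouse 2 was left out, and the mean of its probe sets gave 0.60 and the actin ratio in the fit 0.14. These proteins come from a cluster of near-identical genes, so the assignment of their signal to 1 gene is uncertain.

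Some genes of cell division and of antigen presentation fell. Ccnd1, the cyclin that opens the cell cycle, read 462, 359 and 486 in vehicle mice and 122, 197 and 161 in testosterone mice (2.74-fold lower, adjusted p = 0.00164), a call lost with the pyruvate carboxylase ratio only. Tk1, thymidine kinase, read 164, 195 and 247 in vehicle mice and 102, 89.3 and 87.2 in testosterone mice (2.15-fold lower), and Mcm4, a part of the replicative helicase, 42.2, 47.8 and 28.6 in vehicle mice and 19.8, 17.9 and 15.1 in testosterone mice (2.21-fold lower). Of 18 tested genes of DNA replication and mitosis 5 fell and 1 rose (median -0.22): Ccnf, cyclin F, read 21.9, 27.7 and 13.4 in vehicle mice and 81.3, 51.9 and 56.2 in testosterone mice (3.08-fold higher). Mcm10, which is not in that list, rose, as given above. Of 40 genes of the list on the array only these 18 passed the filter on dim signals. Among 19 genes of the MHC and antigen processing 4 fell and 0 rose (median -0.30), with the immunoproteasome subunits Psmb8 at 267, 196 and 242 in vehicle mice and 113, 131 and 132 in testosterone mice (1.86-fold lower) and Psmb10 at 301, 282 and 333 in vehicle mice and 202, 192 and 178 in testosterone mice (1.6-fold lower), and the peptide loading factor Tapbp at 618, 569 and 561 in vehicle mice and 325, 401 and 306 in testosterone mice (1.7-fold lower). With the actin, Gapdh and pyruvate carboxylase ratios in the fit the median of the list was 0.02, -0.53 and 0.09, and 0, 2 and 0 members were lower. Of 31 lysosomal genes 9 fell and 2 rose: Ctsc, cathepsin C, read 1360, 1619 and 1315 in vehicle mice and 609, 798 and 598 in testosterone mice (2.15-fold lower, adjusted p = 2.76e-05), against the rise of Dnase2a. The count of lysosomal genes that fell was 5 without vehicle mouse 1, and with the 3 ratios in the fit it was 1, 0 and 0, with medians of -0.04, -0.18 and -0.00.

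Hepatocytes differ along the path of blood from the portal to the central vein. Of 20 pericentral and Wnt genes 7 fell (35%) and 1 rose, with a median of -0.30; of 15 periportal genes 4 fell (26.7%) and 1 rose, with a median of -0.14. Slc1a2, a glutamate transporter of pericentral hepatocytes, read 138, 132 and 94.9 in vehicle mice and 59.7, 51.9 and 59.3 in testosterone mice (2.11-fold lower, adjusted p = 0.000343), Rhbg, an ammonium transporter, 44.2, 30.6 and 22 in vehicle mice and 11.8, 17 and 14.3 in testosterone mice (2.18-fold lower, a call lost without testosterone mouse 1 or vehicle mouse 1), and the dicarboxylate carrier Slc13a3 90.8, 66.6 and 84 in vehicle mice and 50.3, 39.8 and 29.3 in testosterone mice (2.05-fold lower). On the portal side Cdh1, E-cadherin, rose 1.72-fold, a call lost without testosterone mouse 1 or 2 or vehicle mouse 2, and Hal and Asl fell. The difference between both lists was not tested. The pericentral median was -0.53, -0.66 and -0.63 with the 3 ratios in the fit, where 2, 2 and 1 members were lower, and the periportal median 0.08, -0.03 and -0.01, where 1, 0 and 0 were.

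Markers of cell types were read beside these results. Of 13 hepatocyte identity genes 1 rose and 3 fell, and Alb, albumin, read 4727, 4607 and 5038 in vehicle mice and 5013, 5267 and 5009 in testosterone mice (0.09 ± 0.08, adjusted p = 0.463). The member that fell furthest was Asgr2, a subunit of the asialoglycoprotein receptor, at 345, 297 and 311 in vehicle mice and 195, 155 and 223 in testosterone mice (1.68-fold lower). The summed signal of the list was 44274 to 47052 in vehicle mice and 44636 to 45420 in testosterone mice. Of 19 tested Kupffer cell and macrophage markers 8 fell and 0 rose (median -0.64), such as Cd68 at 113, 82.1 and 72.2 in vehicle mice and 36.1, 53.3 and 33.7 in testosterone mice and Vsig4 at 680, 624 and 469 in vehicle mice and 315, 360 and 275 in testosterone mice, with summed signals of 5060 to 7640 against 3822 to 4514. With the actin, Gapdh and pyruvate carboxylase ratios in the fit 0 markers were called, and the median was -0.32, -0.51 and 0.06. Without vehicle mouse 1, the highest in Cd68 and Vsig4, 2 markers fell, without testosterone mouse 1 the count was 4 and without mouse 3 it was 5, and Vsig4 was not called in any of these 3 fits, nor without vehicle mouse 2. With the actin or pyruvate carboxylase ratio in the fit the oxidase subunit Cybb of that list had changes of 0.13 and 0.39 in place of -1.03, and its call was lost without testosterone mouse 1 or vehicle mouse 1. In vehicle mice alone, 15 of the 19 were lower and 0 higher after withdrawal than at the end, where 6.83% of all genes were lower, a comparison that shares these vehicle mice. With the same ratios, 0 endothelial markers were called and their medians were 0.04, -0.11 and 0.05. Endothelial markers gave 4 lower and 2 higher of 17 and summed signals of 2746 to 2883 against 2365 to 2535, and the count that fell was 1 or 2 without testosterone mouse 1, 2 or 3 or vehicle mouse 1. Oit3, a marker of sinusoidal endothelium, fell 1.63-fold and Nrp1, a coreceptor of VEGF, rose 1.42-fold, and with the pyruvate carboxylase ratio in the fit they had changes of 0.06 and -0.17. The call of Oit3 was lost without testosterone mouse 2 or vehicle mouse 1, and that of Nrp1 when any mouse other than vehicle mouse 3 was left out. Stellate cell and matrix markers gave 2 lower and 1 higher of 16, at 2707 to 3187 against 2382 to 2609. Most markers of other cells were under the filter: 1 of 8 cholangiocyte genes was tested, Prom1, which read 94.1, 56.2 and 99.5 in vehicle mice and 11.3, 18 and 11.1 in testosterone mice (6.15-fold lower), and 1 of 16 T and NK cell genes, 3 of 11 B cell genes, 3 of 12 neutrophil genes, 3 of 6 erythroid genes and 3 of 20 exocrine pancreas genes. Of the last, Cela1, an elastase, rose 1.66-fold, from 164, 191 and 209 to 320, 270 and 344, a call lost without testosterone mouse 1 or 3 or vehicle mouse 1 or 2. Summed neutrophil signals reached 2217 in 1 vehicle mouse, in which Lcn2 alone read 2008, and were 42.6 to 170 in testosterone mice. The part of cell composition in the falls of complement, MHC and lysosomal genes was not tested.

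Probe sets of one gene lie at different places of its transcript and did not always move together. Of 2630 genes with at least 2 tested probe sets, 282 had 2 or more called, and in 247 all called probe sets changed in one direction. In 35 (12.4%) they were called in opposite directions, with Hnf4a, Hsp90b1 and Sec61a1 given above as examples. For Egfr one probe set rose from a mean of 15.8 to 90.2 (log2 2.62 ± 0.29, adjusted p = 4.08e-05) and another fell from 114 to 54.5 (-1.01 ± 0.32, adjusted p = 0.0372), while the brightest, at 329, 385 and 236 in vehicle mice and 487, 520 and 549 in testosterone mice, rose (0.74 ± 0.19). For the actin-binding protein Lasp1 the values were 1.36 ± 0.19 and -1.26 ± 0.32, for the ethanolamine kinase Etnk1 0.75 ± 0.11 and -0.83 ± 0.20, and for the transcription factor Atf2 0.60 ± 0.19 and -1.05 ± 0.21. The rise of Atf2 lost its call without testosterone mouse 1. The position of each probe set along its transcript was not used here, so how far these splits follow the 3' to 5' ratio was not tested.

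The effect at the end of treatment differed from that after withdrawal for 158 genes (2.19% of those tested), 101 (1.4%) with a higher and 57 (0.79%) with a lower log2 change at the end. Phlda1 read 598, 381 and 605 in withdrawn vehicle mice and 229, 215 and 179 in withdrawn testosterone mice, so that its effect of 2.03 at the end stood against -1.32 after withdrawal (difference 3.36 ± 0.23, adjusted p = 2.16e-06). Cish had 1.73 at the end and -1.59 after withdrawal (3.32 ± 0.30, adjusted p = 4.81e-05), Myc 2.34 and -0.36, and Foxq1 1.96 and -0.28. The vehicle mice of the time points differed too for Phlda1 and Cish, by 1.25 and 1.31 (withdrawn minus end, log2), and were not called for Myc (-0.07) and Foxq1 (-0.39). For the 38 genes that held in every fit, 35 were also called in the same direction after withdrawal, where 433 of all genes tested (6%) were called; Phlda1, Foxq1 and Gadd45g were the exceptions. The estimate of the spread behind the choice of the 38 takes in the withdrawn mice too. Their share is therefore not like that of all genes, and genes of similar size and spread were not compared. The largest differences with a lower effect at the end were those of Igfbp1, a binding protein of insulin-like growth factors (-1.34 at the end and 3.46 after withdrawal), and Bcl6 (-0.01 and 3.01). The vehicle mice of these genes differed between the times by -2.59 and -1.37. Both treatment comparisons used separate mice.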

How the data were processed

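Liver RNA of 12 female mice, 5 µg of total RNA each, was hybridised to 12 Affymetrix arrays of 1 colour. The deposited table holds array intensities, which the authors scaled so that the trimmed mean of every array, without the highest and lowest 2%, is 100.05; GCOS and MAS5 are named in the submitters' processing notes, with no version given. The table was used as deposited, since no scanner files were used here.

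Of 22690 probe sets, 64 controls were set aside, and of the other 22626 the platform annotation gave 1 gene symbol to 20380, several to 691 and none to 1555. Each of 12393 genes was represented by its probe set with the highest mean signal over the 12 arrays. Signals under 4.842, the 25th percentile of the signals of these other probe sets, were raised to it, log2 was taken, and 7217 genes whose signal was above the array median on at least 3 of 12 arrays were tested. limma 3.58.1 in R 4.3.3 fitted 1 mean per group over all 12 arrays, with a variance trend and Benjamini-Hochberg adjustment, and genes with an adjusted p under 0.05 were called; all tests were two-sided. Control ratios were compared with exact permutation tests in scipy 1.17.1, and figures drawn with matplotlib 3.10.9. Levels of different probe sets were combined or compared only in that choice, the control ratios, the means of a gene's probe sets and the summed marker signals. In such sums the brightest probe sets weigh most. The number of arrays limits the precision.

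Genes were named by rule, leaving out P450s and sulfotransferases: 30 increases and 30 decreases, by size, among called genes whose groups do not overlap, the 10 smallest adjusted p-values, at most 4 called genes per list, up to 10 genes with probe sets called in opposite directions, the 10 largest differences between the times, and a fixed set of hormone, signalling and iron genes. The 38 genes that held in every fit, the genes with the promoter motif and the list members Abcg2, Slco1a4, Pim1, Socs3, Sec61a1 and Xbp1 were named after their values were seen. The members and lists were chosen with earlier results of these data known. Alternatives were other floors, filters, normalizations and probe set rules, each control ratio as a covariate, a replicate block and each mouse left out. The labels give no pairing by replicate number, and deviations of same-numbered mice correlated at 0.008, -0.025 and -0.027. These values show no strong shared deviation and cannot show that mice were handled independently. Per the series' design text each array holds 1 mouse, so p-values measure the spread between mice.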

Additional observations from a re-analysis of the deposited data

Results flagged for a closer look

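For 39 of the named genes the treatment effect at the end differed from that after withdrawal by a test of the difference itself (limma, adjusted p under 0.05). Of all 7217 genes tested, 158 (2.19%) differed in this way. Some of the named genes were chosen for the largest differences between the times, and others for large changes at the end. The choice itself can raise the count of 39, so it cannot be compared with the share of all genes. The values are differences of log2 effects, end minus withdrawn, and each compares 2 groups of 3 mice with 2 other groups of 3. In signalling and stress genes they were 3.36 for Phlda1, 3.32 for Cish, 2.70 for Myc, 2.07 for Gadd45g and 1.25 for Odc1, and among transcription factors 2.24 for Foxq1, 1.47 for Foxa2, 1.47 for Hhex, 0.79 for Cebpb and -3.02 for Bcl6. Growth factors, their binding proteins and receptors gave -4.80 for Igfbp1, -0.53 for Igf1, 1.24 for Bmp2 and -1.54 for Met.

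Among lipid and peroxisome genes the difference was -2.30 for Elovl3, 2.31 for Hao2, -1.26 for Abcd2, -0.95 for Acnat2, 1.93 for Lpin1 and 1.18 for Ces1e. Other enzymes and carriers gave 2.09 for Ampd2, 1.55 for Slc25a30, -1.35 for Mccc2, 1.00 for Sod1, -1.56 for Ctse and -0.92 for Slc1a2. Elovl3 rose at both times (3.00 at the end and 5.31 after withdrawal). Hao2 had -3.16 and -5.47, and its vehicle mice differed by 3.09 between the times.

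In secreted proteins and complement the difference was -1.29 for Bche, -1.24 for Apcs, -1.42 for Susd4, -0.59 for Lect2, -0.46 for Serpinf2 and -0.64 for Ang. Genes of protein and RNA handling gave 1.18 for Stt3a, 0.64 for Ssr1, 0.82 for Rrs1, 1.11 for Hnrnpa2b1 and 0.57 for U2af1, and the cytoskeletal genes 0.47 for Tuba4a and -0.77 for S100a10. The effects of Rrs1 and Bmp2 at the end were no longer called when any mouse other than vehicle mouse 2 (Rrs1) or vehicle mouse 3 (Bmp2) was left out, and those of Igfbp1 and Bcl6 were not called. The control ratios of the testosterone group were above those of the vehicle group at the end and overlapped after withdrawal, and their part in these differences was not tested.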

How the results depend on the processing

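The count of 1258 called genes moved most with the control ratios. With a ratio as a covariate it was 86 (Gapdh), 78 (beta-actin) and 55 (pyruvate carboxylase), and of the 218 named genes 162, 160 and 167 then lost their call and a further 3, 6 and 9 changed sign. Testing every probe set on its own gave 2185 called probe sets, and requiring a 2-fold change left 185 genes. Leaving out 1 mouse gave 789 to 1137 genes, with 789 without testosterone mouse 1, 824 without testosterone mouse 2 and 835 without vehicle mouse 1. Centring each array on its median changed the share of increases among the called genes from 54.1% to 62.8% and moved the median of all genes from 0.04 to 0.07 on the log2 scale. The remaining settings, which were other floors, filters, quantile normalization, the mean of the probe sets, only the 6 arrays and no variance trend, gave counts within 1.5 times of 1258. With the replicate block the count was 1025 (538 higher, 487 lower), and 13 named genes lost their call. The labels give no pairing by number, and same-numbered mice showed no strong shared deviation. The count of genes whose effect differed between the times was 37 in place of 158 with no filter on dim probe sets. The differences of the control ratios kept their direction with any mouse left out, at 0.548 to 0.65 for beta-actin, 0.152 to 0.184 for Gapdh and 11.3 to 13.6 for pyruvate carboxylase.

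Some named genes changed sign. With the Gapdh ratio in the fit the log2 change was -0.09 for Pfkfb3, -0.07 for Bmp2 and 0.08 for Zap70. With the beta-actin ratio it was -0.05 for Rrs1, -0.01 for Chordc1, 0.14 for Mup3, -0.25 for Tra2a, 0.13 for Cybb and 0.00 for Bgn. With the pyruvate carboxylase ratio it was -0.14 for Hsph1, -0.17 for Hsp90aa1, -0.01 for Chordc1, 0.01 for Cfp, -0.42 for Tra2a, 0.39 for Cybb, 0.23 for Vsig4, 0.06 for Oit3 and -0.17 for Nrp1. The mean of the probe sets gave -0.05 for Eif4g2, 0.60 for Mup3, -0.23 for Il1rap, -0.25 for Hnf4a, -0.02 for Metap1, 0.36 for Samhd1 and -0.06 for Atf2. Without shared probe sets it was -0.02 for Eif4g2 and -0.74 for Myo1c. The cause was not tested for any of these. A planned description of the log2 changes by coding length was not run, for want of a table of protein lengths. Signals close to the floor of 4.842 limit the folds given as lower bounds.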
